A study of Zea mays with 12 samples.

Results

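In developing maize seeds, 171 of 44146 nuclear gene models had transcripts at 50% or less of the wild-type level in the msh7 mutant at 7 days after pollination (DAP), and were within 80% to 125% of wild type at 14 DAP. They were chosen by measured values, from the mean CPM of each group (a gene's count per 1000000 counts in its library). The limits were at least 5 CPM in wild type at 7 DAP, a mutant level at 7 DAP of at most 0.5 of wild type, at least 2 CPM in wild type at 14 DAP, and a ratio of mutant to wild type at 14 DAP between 0.8 and 1.25. The genotype difference at each stage is therefore given as a description, and its calls below are no independent test. No identifier of another kind (organelle genes, microRNA precursors and others) met the same limits.

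Whole seeds were profiled by RNA-seq in 4 groups of 3 libraries: wild type (labelled AA) at 7 and at 14 DAP, and seeds of zmmsh7-2, labelled as a CRISPR-made MSH7 knockout (aa), at the same stages. The labels name no other allele and no treatment, and do not say how many plants or ears gave the seeds, whether seeds were pooled, or whether the mutant is 1 line. The p-values therefore measure only how these libraries vary, and that variation may be technical. In RNA from whole seeds, fewer cells of a type and less RNA per cell cannot be told apart. Library totals lay between 16854595 and 21932590 counts. The files do not pair nuclear identifiers with names, and 0 of the 171 matched the RefSeq gene table (Zm-B73-REFERENCE-NAM-5.0), so the genes are given by identifier and no product is assigned. For the same reason MSH7 itself, which would check the genotype labels, and the markers of seed tissues were not analysed here.

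MSH7 is a MutS homolog of plants that takes part in the recognition of mismatched bases in DNA. The maize seed is dominated by the endosperm, whose cells at the earlier stage are still dividing and taking on their identities (transfer layer, aleurone, starchy endosperm), while at the later stage the starchy endosperm is filling with starch and zein storage proteins. Many transcripts of the early seed decline between these stages, and those of storage proteins rise steeply.

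The limits narrowed the gene models step by step. Of the 44146, 16683 passed both abundance limits in wild type, and 987 of those were at 50% or less of wild type in the mutant at 7 DAP. Among these 987, the mutant remained under 80% of wild type at 14 DAP for 781 genes, was between 80% and 125% for 171, and was above 125% for 35. The 171 are thus 17.3% of the genes that were low at 7 DAP, while 55.2% of all 16683 genes lay within that window at 14 DAP. Just inside the limit at 7 DAP were Zm00001d002362 with a ratio of 0.499 and Zm00001d036830 with 0.499. Just outside it were Zm00001d045559 and Zm00001d052174, each with a ratio of 0.5002. At 14 DAP the ratios nearest the limits were 0.8002 for Zm00001d020585 and 1.24 for Zm00001d022278 on the inside, and 0.796 for Zm00001d009359 and 1.28 for Zm00001d030858 on the outside.

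The 171 genes covered a wide range of abundance. Their mean level in wild type at 7 DAP ran from 5.11 to 655 CPM with a median of 27.8 CPM; 40 were below 10 CPM and 25 were at 100 CPM or more. In the mutant at 7 DAP the median was 11.2 CPM. Most of the reductions lay close to the limit. The mutant level was 42.1% of wild type at the median, 107 genes lay at a ratio of 0.4 or more, and 13 lay at 0.25 or less. The lowest member total in the mutant was 45 counts over its 3 libraries, and in the other groups it was 95 counts or more. Summed over all members, the 3 wild-type libraries at 7 DAP held 10472, 10380 and 10380 CPM and the 3 mutant libraries 4065, 4095 and 4069 CPM. The summed level thus differed little between libraries of a group, while single genes could vary more.

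**Figure D1:**
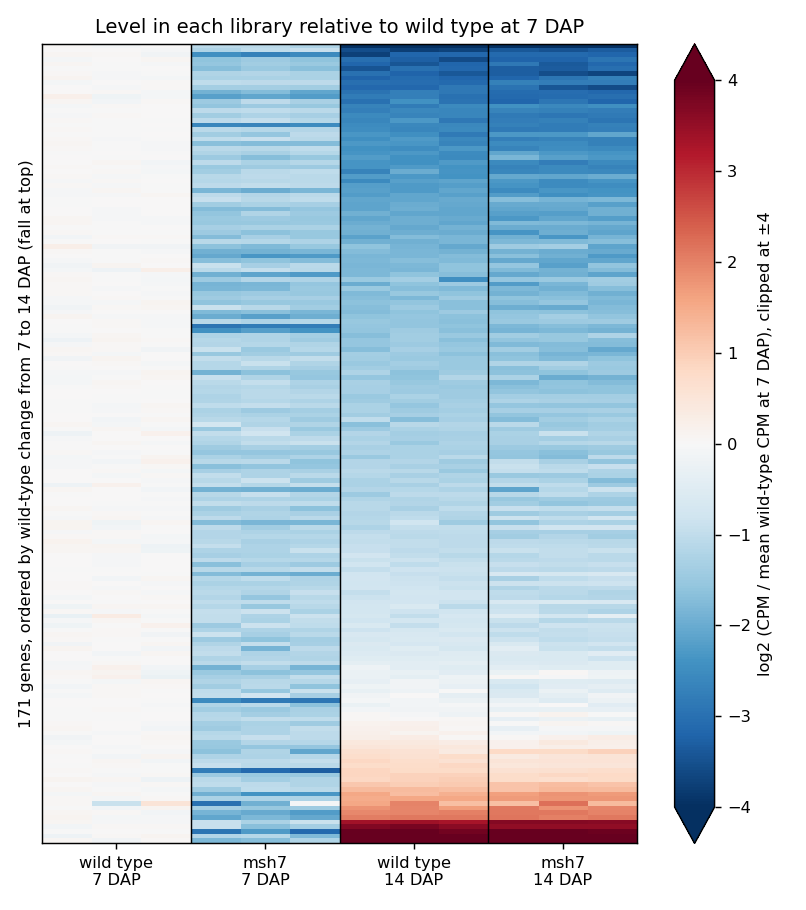
Level of each of the 171 genes (rows) in each of the 12 libraries (columns, 3 per group), as log2 of CPM over the mean wild-type CPM at 7 DAP; red is above and blue below wild type at 7 DAP, and the scale is clipped at ±4. Genes are ordered by their change in wild type from 7 to 14 DAP, and the 14 DAP columns of the genotypes look alike because the rule asks for it, while most rows are blue and a block at the bottom is red at 14 DAP.

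Since the rule used all 12 libraries, the reduction at 7 DAP was also read in libraries it had not seen. The limits were applied to 2 replicates of each group and the ratio was read in the replicate left out. The labels do not say whether that replicate came from other plants. With replicates 1, 2 and 3 left out, 167, 164 and 180 genes were chosen, of which 142, 142 and 144 were among the 171. The mutant was below wild type at 7 DAP in the left-out libraries for all 167, all 164 and all 180. Among all 16683 genes above the abundance limits, that share was 47.1%, 47.6% and 48.0%. Most genes varied little between libraries of a group, so the choice in 2 replicates largely fixes this outcome. It is no independent support for the reduction. A ratio of 0.5 or less was found for 132, 134 and 139 of the chosen genes, or 79.0%, 81.7% and 77.2%, against 6.15%, 6.16% and 6.04% of all. At 14 DAP the left-out ratio was inside the window for 120, 114 and 126, or 71.9%, 69.5% and 70.0%, against 53.6%, 53.9% and 54.4% of all. Both ratio limits together were met in the left-out libraries by fewer genes, 94 of 167, 95 of 164 and 101 of 180. The share of all genes that met both was not counted. Genes near a limit thus crossed it from library to library, more often at 14 DAP than at 7 DAP in each of these 3 readings.

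Tests across all genes used edgeR's quasi-likelihood test with TMM scaling, and called means a Benjamini-Hochberg adjusted p below 0.05. All 171 genes were tested. At 7 DAP 170 of them were called lower in the mutant, beside 35.6% of all 24096 genes tested, a count that the rule fixes. At 14 DAP 81 were called lower, beside 32.1% of all 23811 genes tested, and 6 higher, beside 31.7%. Scaled by library totals alone, 57 were lower, beside 26.8% of all, and 14 higher, beside 40%. With DESeq2 65 were lower, beside 24% of all genes with an adjusted p, and 3 higher, beside 21.7%. The window of 80% to 125% was thus no sign of equal levels. The mutant level at 14 DAP had a median of 91.4% of wild type and was below wild type for 122 of the 171 genes. The rule used this ratio. Over the 16683 genes above both abundance limits, its log2 value by library totals had a median of 0.10, slightly above wild type. The genotype effect differed between the stages, with a higher value at 14 DAP, for 170 genes, beside 22.8% of all 25344; this too follows from the rule.

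The gene without a call at 7 DAP was Zm00001d016660, which was named after its values were seen. Its levels at 7 DAP were 28.8, 15.1 and 39.4 CPM in wild type and 3.47, 7.37 and 26.8 CPM in the mutant. Mutant replicate 3 lay above wild-type replicate 2, so that the groups overlapped. This was the only member whose libraries overlapped between genotypes at 7 DAP. For the other 170 all mutant libraries lay below all wild-type libraries, as for 37.1% of the 16683 genes above the abundance limits, a count that the ratio limit largely fixes. Over all members the coefficient of variation (SD over mean) had a median of 4.16% in wild type and 6.29% in the mutant at 7 DAP, and 11 members exceeded 25% in at least 1 group.

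How the 171 genes changed in wild type from 7 to 14 DAP was asked next. That ratio is not part of the rule, but the rule sets a minimum for both levels and uses the same wild-type libraries. A low ratio to wild type at 7 DAP also favours genes with a high wild-type level at that stage. The change in wild type is thus not independent of the choice, and how much of it follows from the choice was not tested. Most of the 171 genes declined. In the fit of all 12 libraries, 131 fell and 30 rose, and 10 were not called. Among all 25344 genes tested, 39.8% fell and 40.8% rose. Among the 16683 genes above both abundance limits, 45.1% fell and 41.0% rose. Over the 171 genes the log2 fold change had a median of −0.97, against 0.01 for all genes tested and −0.04 for the 16683. A fall of more than 2-fold was called for 80 of them, beside 17.2% of all genes tested, and a rise of more than 2-fold for 19, beside 18%. The 131 that fell had a median level of 36.6 CPM in wild type at 7 DAP, and the 30 that rose had one of 12.8 CPM.

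Scaling matters for every comparison between stages. The median gene of the 16683 changed by −0.36 on the log2 scale from 7 to 14 DAP in wild type by library totals and by −0.04 with TMM factors. CPM values in the text use library totals, while log2 fold changes and calls between stages use TMM factors. Each stage has its own count table, so stage and any batch that differs between tables cannot be told apart. With library totals only, 139 of the 171 genes fell in wild type, beside 52.2% of all genes tested, and 24 rose, beside 29.5%.

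The decline in wild type was shared with other genes that were low in the mutant at 7 DAP. A set of 444 genes at a ratio of 0.5 or less at both stages, with the same abundance limits, had 319 members that fell and 77 that rose in wild type, or 71.8% and 17.3%, with a median log2 fold change of −0.81. The corresponding shares of the 171 genes were 76.6% and 17.5%. A mirrored rule, with the reduction at 14 DAP only and a minimum of 5 CPM in wild type at 14 DAP, gave 134 genes, of which 50 fell and 68 rose, or 37.3% and 50.7%, with a median of 0.16. The differences between these sets were not tested, and their abundance limits are not the same at each stage.

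**Figure D2:**
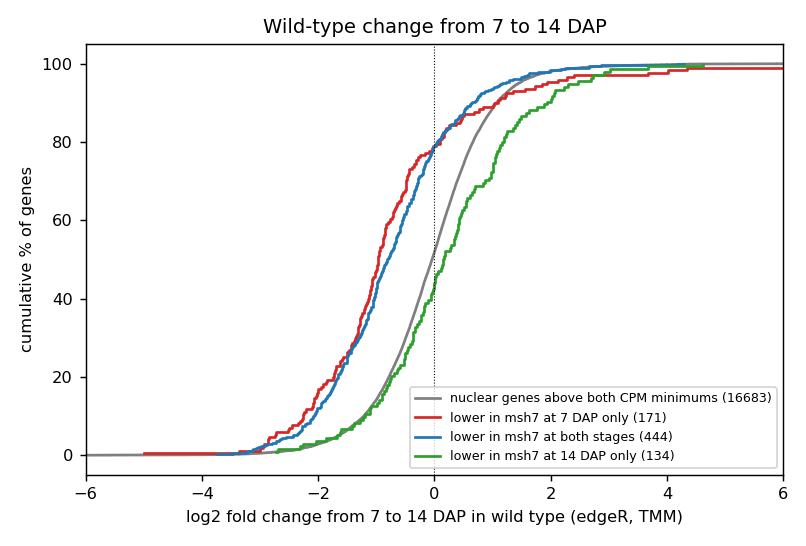
Cumulative percentage of genes (vertical axis) against the log2 fold change from 7 to 14 DAP in wild type (horizontal axis, edgeR with TMM) for the 171 genes, the 444 genes low at both stages, the 134 genes low at 14 DAP only and the 16683 genes above both abundance limits. The curves of the 171 and the 444 genes lie to the left of that of all genes over most of the range, with medians of −0.97 and −0.81.

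In the mutant the change from 7 to 14 DAP is tied by arithmetic to the rule and to the change in wild type, and is given as a description. Of the 171 genes, 87 were called higher at 14 DAP and 46 lower, and 38 were not called, beside 39.3% and 39.6% of all genes tested. Scaled by library totals alone, the counts were 61 higher and 70 lower, beside 28.4% and 52% of all. The 131 genes that fell in wild type had a median log2 fold change of 0.06 in the mutant, compared with −1.18 in wild type. Of these 131, 47 were called higher, 46 lower and 38 not called in the mutant.

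Where the mutant at 7 DAP stood beside wild type at 14 DAP divides the genes further. This contrast is not in the rule but shares libraries with it. For genes that rose or changed little in wild type, the limits largely fix its direction. Of the 171 genes, the mutant at 7 DAP was below wild type at 14 DAP for 103, beside 42.8% of all genes tested, above it for 36, beside 38.3%, and not called for 32. With library totals only, 75 were below, beside 29.3%, and 60 above, beside 53.6%. In mean CPM, the ratio of the mutant at 7 DAP to wild type at 14 DAP had a median of 0.958 and lay between 0.8 and 1.25 for 58 of the 171 genes, or 33.9%, beside 28% of the 16683. With TMM factors the median was 0.738 and 43 genes, or 25.1%, lay in that range, beside 30.3% of the 16683, so that the order of these shares turned with the scaling. Among the 816 genes that were low at 7 DAP but outside the window at 14 DAP, 187, or 22.9%, lay in that range in mean CPM, with a median ratio of 0.709.

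**Figure D3:**
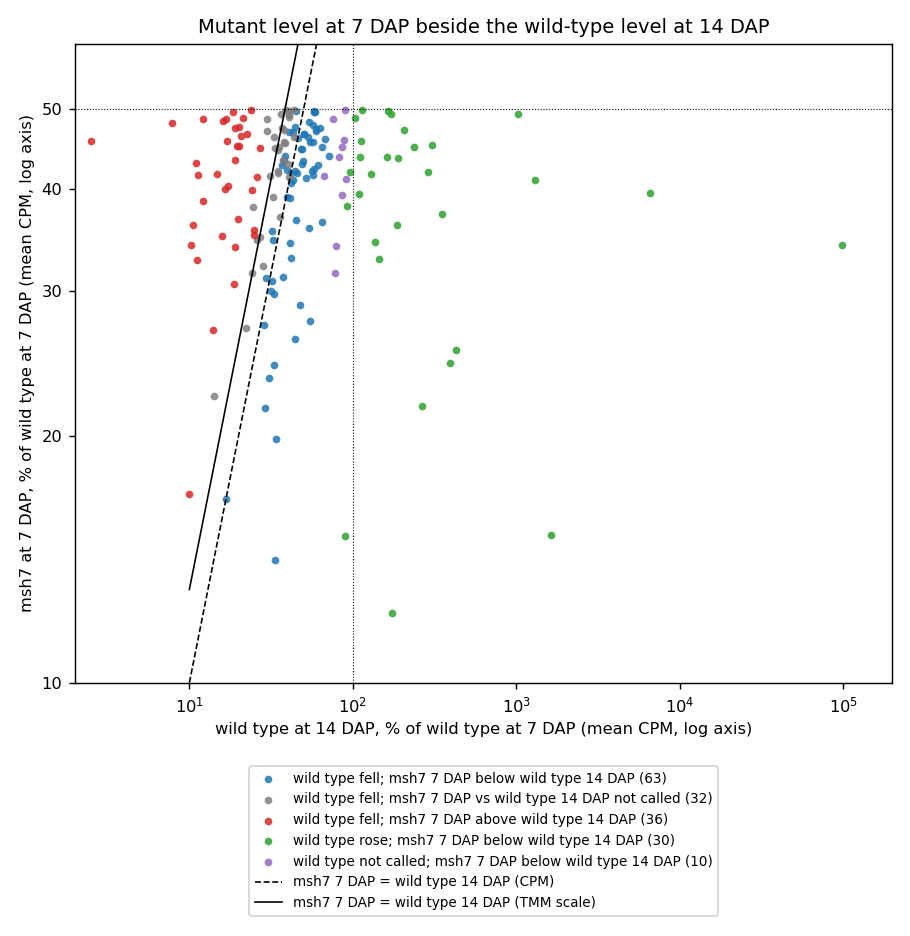
Mutant level at 7 DAP (vertical axis) and wild-type level at 14 DAP (horizontal axis), each in percent of wild type at 7 DAP (mean CPM, log axes), for the 171 genes, coloured by their calls. On the dashed line both levels are equal by library totals and on the solid line with TMM factors; the dotted lines mark 50%, the limit of the rule, and 100%. The 36 red genes lie to the left of the lines and the 30 green genes far to the right.

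The calls in wild type and in this contrast were then combined into patterns. Neither these patterns nor the mutant calls within them were counted over all genes. How much of each pattern follows from the rule was not tested. With TMM factors, the largest pattern held 63 genes. They fell in wild type and were called lower in the mutant at 7 DAP than in wild type at 14 DAP. For 12 of them the mean CPM of the mutant at 7 DAP was not below that of wild type at 14 DAP. Their median levels were 41.9 CPM in wild type and 12.01 CPM in the mutant at 7 DAP, and 15.5 CPM in wild type and 15.1 CPM in the mutant at 14 DAP. From 7 to 14 DAP in the mutant, 47 of them were called higher, 2 lower and 14 not called. The most abundant of them at 7 DAP was Zm00001d028180, with 462, 466 and 476 CPM in wild type at 7 DAP and 77.05, 75.8 and 82.2 CPM in the mutant. At 14 DAP it was at 81.0, 78.0 and 77.6 CPM in wild type and at 72.3, 68.0 and 71.4 CPM in the mutant. The mutant at 7 DAP and wild type at 14 DAP overlapped in CPM, and both lay far under wild type at 7 DAP. Zm00001d028180 fell in wild type with a log2 fold change of −2.25 (SE 0.03, edgeR adjusted p = 6.10e-91), and was 5.98-fold lower in the mutant than in wild type at 7 DAP.

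Zm00001d011610 was one of the 2 genes called lower from 7 to 14 DAP in the mutant. It was at 313, 321 and 328 CPM in wild type and 97.5, 105 and 97.1 CPM in the mutant at 7 DAP. The levels at 14 DAP were 93.2, 97.7 and 93.5 CPM in wild type and 77.1, 76.7 and 76.0 CPM in the mutant. The mutant at 7 DAP and wild type at 14 DAP overlapped in CPM, with a slightly higher mean in the mutant (99.7 against 94.8 CPM), and the call of a lower level rests on the TMM factors. The wild-type log2 fold change was −1.44 (SE 0.03, edgeR adjusted p = 1.26e-70). For Zm00001d023384 the mutant at 7 DAP lay further below wild type at 14 DAP. This gene was at 46.1, 48.0 and 45.0 CPM in wild type and 6.16, 6.63 and 6.81 CPM in the mutant at 7 DAP. At 14 DAP it was at 15.9, 15.4 and 15.2 CPM in wild type and 13.3, 14.2 and 13.5 CPM in the mutant. Every mutant library at 7 DAP was thus below every library of 14 DAP, and the wild-type log2 fold change was −1.27 (SE 0.07, edgeR adjusted p = 1.43e-35).

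In 32 genes wild type fell and the difference between the mutant at 7 DAP and wild type at 14 DAP was not called, which does not show that the levels were equal. These were scarcer, with medians of 12.6 CPM in wild type and 5.11 CPM in the mutant at 7 DAP, and of 3.83 and 3.67 CPM at 14 DAP. In the mutant 22 of them were not called from 7 to 14 DAP and 10 were called lower.

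In 36 genes wild type fell and the mutant at 7 DAP stood between the wild-type levels of the stages. Their medians were 66.5 CPM in wild type and 27.9 CPM in the mutant at 7 DAP, and 10.3 and 8.77 CPM at 14 DAP. In the mutant 34 of them were called lower at 14 DAP, and the median log2 fold change was −1.13, compared with −2.16 in wild type. The most abundant member of all belonged here. Zm00001d019078 was at 680, 648 and 636 CPM in wild type and 234, 246 and 241 CPM in the mutant at 7 DAP. The levels at 14 DAP were 129, 136 and 123 CPM in wild type and 103, 113 and 102 CPM in the mutant. The groups at 7 DAP were apart from each other and from those at 14 DAP, and the wild-type log2 fold change was −2.02 (SE 0.03, edgeR adjusted p = 5.12e-55).

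The steepest fall in wild type was that of Zm00001d008515, from 88.1, 80.8 and 84.5 CPM at 7 DAP to 1.91, 2.14 and 2.31 CPM at 14 DAP (edgeR log2 fold change −5.00, SE 0.09, adjusted p = 6.87e-82). In the mutant it was at 39.6, 39.9 and 36.2 CPM at 7 DAP and at 1.42, 1.90 and 2.03 CPM at 14 DAP. Its transcript was thus nearly gone at 14 DAP in either genotype. Zm00001d030864 (log2 fold change −3.36, SE 0.09), Zm00001d005928 (−3.01, SE 0.13) and Zm00001d009196 (−2.95, SE 0.12) followed in wild type, with means of 3.84, 2.07 and 2.68 CPM left at 14 DAP. Of these, Zm00001d005928 had one of the deepest reductions at 7 DAP, at 22.03, 21.3 and 18.7 CPM in wild type and 3.77, 3.20 and 3.56 CPM in the mutant. Zm00001d012391 is among the few genes called higher in the mutant at 14 DAP. It was at 319, 340 and 341 CPM in wild type and 164, 163 and 160 CPM in the mutant at 7 DAP, and at 41.1, 40.6 and 38.8 CPM in wild type and 51.4, 48.6 and 48.7 CPM in the mutant at 14 DAP. The order of the genotypes was opposite at the stages, with no overlap at either.

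**Figure D4:**
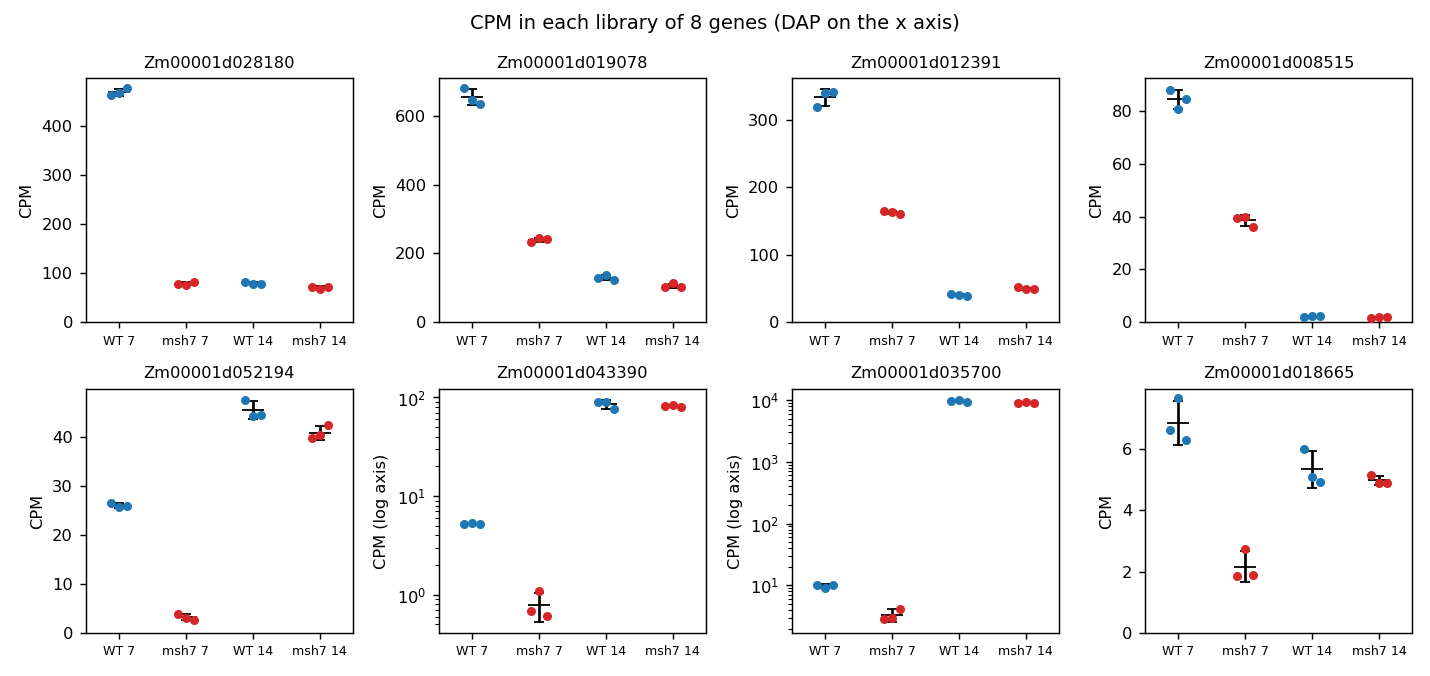
CPM of 8 of the genes in each library (points, blue for wild type and red for msh7), with the mean and SD of the 3 libraries of each group (bars); the panels of Zm00001d043390 and Zm00001d035700 have a log axis. In the upper row wild type fell from 7 to 14 DAP, in Zm00001d052194, Zm00001d043390 and Zm00001d035700 it rose, and for Zm00001d018665 no change was called; in each panel msh7 was below wild type at 7 DAP.

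The 30 genes that rose in wild type had medians of 12.8 CPM in wild type and 4.95 CPM in the mutant at 7 DAP, and of 36.8 and 35.3 CPM at 14 DAP. All 30 were below the 14 DAP level of wild type in the mutant at 7 DAP, and all 30 were called higher at 14 DAP in the mutant, with a median log2 fold change of 2.60 compared with 1.17 in wild type. Where wild type rises, the limits of the rule largely fix both counts. The deepest reduction of all members was found here. Zm00001d052194 was at 26.6, 25.7 and 25.9 CPM in wild type and 3.82, 3.03 and 2.65 CPM in the mutant at 7 DAP, or 12.1% of wild type. By 14 DAP it stood at 47.6, 44.3 and 44.7 CPM in wild type and 39.8, 40.4 and 42.5 CPM in the mutant. The mutant thus went from far below wild type to close to it, with no overlap at either stage, and the wild-type log2 fold change was 1.12 (SE 0.06, edgeR adjusted p = 3.30e-36).

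A few genes were barely present at 7 DAP and abundant at 14 DAP. Zm00001d035700 was at 10.3, 8.91 and 10.1 CPM in wild type and 2.84, 2.97 and 4.21 CPM in the mutant at 7 DAP. At 14 DAP its mean was 9672 ± 222 CPM in wild type and 8992 ± 107 CPM in the mutant (SD, n = 3 each). It was the only member above 1000 CPM, and its wild-type log2 fold change was 10.27 (SE 0.04, edgeR adjusted p = 2.00e-66). It also carried most of the summed level of the members at 14 DAP. With it, the members summed to 14694 ± 322 CPM in wild type at 14 DAP and 10411 ± 53.4 CPM at 7 DAP; without it, to 5022 ± 101 and 10401 ± 53.0 CPM (SD, n = 3 each). The direction of the wild-type change of the sum was thus set by this gene.

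Zm00001d002768 was at 5.88, 7.00 and 7.27 CPM in wild type and 2.98, 3.03 and 1.95 CPM in the mutant at 7 DAP, and rose in wild type to 443, 462 and 421 CPM at 14 DAP (edgeR log2 fold change 6.35, SE 0.07, adjusted p = 2.14e-27). In the mutant it was at 364, 385 and 346 CPM at 14 DAP. Zm00001d043390 was at 5.22, 5.27 and 5.18 CPM in wild type and 0.685, 1.09 and 0.601 CPM in the mutant at 7 DAP, or 15.1% of wild type. At 14 DAP it was at 90.5, 90.0 and 75.7 CPM in wild type and 81.9, 84.6 and 79.3 CPM in the mutant, where the genotypes overlapped. Zm00001d043464 rose in wild type with a log2 fold change of 4.01 (SE 0.06, edgeR adjusted p = 1.36e-83). Each of these genes was low at 7 DAP in either genotype, so their ratios at that stage rest on fewer counts than those of the abundant genes above.

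Near the line between rise and fall stood Zm00001d029778, at 38.4, 38.9 and 37.8 CPM in wild type and 6.75, 5.43 and 5.21 CPM in the mutant at 7 DAP. By 14 DAP it stood at 36.0, 35.4 and 32.3 CPM in wild type and 31.3, 26.6 and 32.3 CPM in the mutant, where the genotypes overlapped. Its wild-type level was called as a rise (log2 fold change 0.17, SE 0.06, edgeR adjusted p = 0.00866). That call turned into a fall with library totals only (log2 fold change −0.15, adjusted p = 0.0173), and was lost with DESeq2 (0.13, adjusted p = 0.126) and without wild-type replicate 1 (0.12, adjusted p = 0.0927) or 2 (0.13, adjusted p = 0.0631) at 14 DAP. Its change in wild type thus has no settled direction, while the mutant was at 15.1% of wild type at 7 DAP.

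For 10 genes no change from 7 to 14 DAP was called in wild type, and for all 10 the mutant at 7 DAP was below wild type at 14 DAP and was called higher at 14 DAP than at 7 DAP. Where wild type changes little, the limits of the rule largely fix both counts. The 10 genes were scarce, with a median of 7.55 CPM in wild type and 3.21 CPM in the mutant at 7 DAP, and of 5.67 and 6.02 CPM at 14 DAP. Zm00001d018665 was at 6.64, 7.67 and 6.30 CPM in wild type and 1.86, 2.74 and 1.90 CPM in the mutant at 7 DAP. Levels at 14 DAP were 6.02, 5.08 and 4.92 CPM in wild type and 5.16, 4.91 and 4.91 CPM in the mutant. Only the mutant libraries of 7 DAP stood apart by more than 2 CPM from all others, and the wild-type log2 fold change was −0.04 (SE 0.14, edgeR adjusted p = 0.780).

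Zm00001d042685, the most abundant of the 10, was at 50.05, 54.4 and 53.4 CPM in wild type and 24.8, 26.5 and 25.4 CPM in the mutant at 7 DAP. At 14 DAP it was at 40.6, 39.0 and 39.9 CPM in wild type and 36.1, 35.1 and 37.4 CPM in the mutant, so that no groups overlapped. Its wild-type log2 fold change was −0.08 (SE 0.05, edgeR adjusted p = 0.116), and it was called a fall with library totals only (−0.40, adjusted p = 4.02e-12), with RLE factors (−0.11, adjusted p = 0.0332) and without wild-type replicate 1 at 7 DAP (−0.12, adjusted p = 0.0445). With library totals only, Zm00001d018810 (−0.33), Zm00001d012581 (−0.28) and Zm00001d018665 (−0.36) were called as falls as well. The size of this last group thus depends on the scaling between the stages.

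The 6 genes called higher in the mutant at 14 DAP, named after their values were seen, were Zm00001d011755, Zm00001d012391, Zm00001d022278, Zm00001d034713, Zm00001d038772 and Zm00001d042540, at 115% to 124% of wild type. Zm00001d034713 was the most abundant of them at 14 DAP, with 245, 255 and 258 CPM in wild type and 285, 298 and 301 CPM in the mutant, after 90.5, 82.4 and 90.4 CPM in wild type and 36.2, 37.1 and 37.0 CPM in the mutant at 7 DAP. The genotypes did not overlap at either stage and stood in opposite order.

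Members with consecutive numbers in their identifiers formed 2 pairs, whose positions were not examined here. Zm00001d038019 and Zm00001d038020 were at 46.1% and 36.1% of wild type in the mutant at 7 DAP, and their wild-type log2 fold changes from 7 to 14 DAP were −0.80 and −2.93. Zm00001d045604 and Zm00001d045605 were at 49.8% and 47.4%, with wild-type log2 fold changes of −0.88 and −0.35. The members of each pair thus differed in how far they fell in wild type. These 4 were also named after their values were seen.

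The genes outside the 171 whose levels over the 12 libraries were most like the members' mean log2 CPM were Zm00001d025665 (Pearson r = 0.991), Zm00001d017106 (r = 0.990) and Zm00001d047471 (r = 0.987). The r values describe 12 libraries in 4 tight groups. Zm00001d025665 was at 171, 158 and 162 CPM in wild type and 36.2, 41.5 and 35.3 CPM in the mutant at 7 DAP, and its ratio of 0.793 at 14 DAP placed it just outside the window. Zm00001d017106 and Zm00001d047471 were at 70.9% and 57.3% of wild type in the mutant at 7 DAP, so that they followed the shape with a smaller reduction.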

How the data were processed

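The deposited values are raw whole-number counts per gene, with 1 table per stage. Per the submitters' processing notes, reads were handled with HISAT2 2.2.1, Trimmomatic 0.39, StringTie 1.3.6, featureCounts 1.6.4 and DESeq2 on B73 RefGen_v4; no source used here gives the strand setting or how reads with several alignments were counted. Columns were matched to samples by their descriptions.

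CPM were computed on column totals. Counts were tested in R 4.3.3 with edgeR 4.0.16 (quasi-likelihood, TMM, the default filter by group, robust dispersions, Benjamini-Hochberg over all genes tested): genotypes within a stage in 6 libraries, contrasts between stages in all 12. SEs were taken as the size of the log2 fold change divided by the root of its F value. The fits and the rule were tested on simulated data. Replicates differed by more than sampling noise in each pair (chi-square per degree of freedom 1.66 to 2.38). Alternatives were group medians, TMM or RLE factors in the rule, RLE factors in the tests, library totals, no filter, a replicate block, the wild-type libraries alone, DESeq2 1.42.0 and leaving out each library.

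The members, lists and comparisons were chosen with earlier results of these data known. Named genes are, among members, up to 6 with the highest wild-type level at 7 DAP, 6 with the lowest ratio, 4 with the largest called rise and 4 with the largest fall in wild type, 4 with the smallest change, 2 on each side of the limit at 7 DAP and the 3 most alike non-members. Lists of genes and tissue markers written by symbol could not be applied, since no identifiers carry symbols.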

Additional observations from a re-analysis of the deposited data

Results flagged for a closer look

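The genotype effect differed between 7 and 14 DAP for 170 of the 171 genes in the direct test of that difference (edgeR, all 12 libraries), with a higher value at 14 DAP in each. The rule that chose the genes asks for such a difference, so the count adds nothing to it.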

How the results depend on the processing

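The rule found 162 genes with TMM factors (124 of the 171), 154 with RLE factors (132), 162 with group medians (146) and 161 to 175 when 1 library was left out. With library totals only, the genes called higher in the mutant at 14 DAP went from 6 to 14, those called lower from 7 to 14 DAP in the mutant from 46 to 70, and those with the mutant at 7 DAP above wild type at 14 DAP from 36 to 60. With DESeq2 the genes higher at 14 DAP were 3. The wild-type changes of Zm00001d029778 (−0.15) and Zm00001d012581 (−0.28) reversed with library totals only; that of Zm00001d012581 was not called in the main test. The cause was not tested. All other counts stayed within 1.5 times under the alternatives run, among them wild-type falls (130 to 139) and rises (24 to 30). With the replicate block, 131 genes fell and 30 rose in wild type, as without it, and no count moved by over 1.5 times. Same-numbered libraries of different groups deviated with correlations between −0.02 and 0.06, and differently numbered ones between −0.05 and 0.03. These values show no clear pairing by number, and shared handling was not tested. Of 736 log2 fold changes of 32 named genes recomputed, 3 lost a call, 5 gained one and 2 reversed. Depth limits the scarcest genes most, with as few as 313 counts over 3 libraries in wild type and 45 in the mutant at 7 DAP.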
